A study of Mus musculus with 14 samples.

Results

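The 150 probes described here were chosen as high in colonies picked after 7 days in retinoic acid and not raised after 48 h or 4 days of it, out of 42006 probes on a mouse oligonucleotide array. Retinoic acid (RA), made from vitamin A, binds nuclear receptors that act as transcription factors and drives embryonic stem (ES) cells to differentiate. Leukaemia inhibitory factor (LIF), a cytokine, helps to hold mouse ES cells undifferentiated. LY294002 inhibits phosphoinositide 3-kinase, an enzyme whose signalling helps mouse ES cells to self-renew. The series asked how undifferentiated colonies arise in cultures that RA is driving to differentiate.

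Each of 7 groups had 2 arrays. Day 7 colonies were MC1 ES cells, labelled as grown with LIF and 50 nM RA, from which colonies called pluripotent were picked by hand on day 7. Day 4 colonies were MC1-ZE16 cells in 50 nM RA, with colonies picked on day 4. The other groups were MC1-ZE3 cells: 48 h in 50 nM RA (RA 48 h), 48 h in LY294002 (labelled 10 nM, though the unit is doubtful), 10 passages without RA after 7 days with it (passage 10), standard culture to day 3 (standard day 3) and the untreated culture of the 48 h experiment (control day 3). The strain is labelled 129SvEv-Tac for day 7 colonies and 129/Sv for the other groups. Day 7 therefore cannot be told apart from the MC1 line or from the labelled strain. The labels of day 7 colonies describe lysis of a whole well, against picked colonies in the series' design. No label calls the paired arrays separate cultures, and the p-values may thus cover only technical spread. Each array carried sample RNA in Cy3 beside a common reference in Cy5, made of RNA from 11 cell lines mixed with ES cell RNA. The share of probes well above background in Cy3 was 56.1% to 75.1% per array. Day 7 colonies lay alone on 1 of the 6 slides and were scanned on a day of their own, so slide and group cannot be told apart there. No file gives the probes gene names, so ES cell markers could not be checked and members are given by identifier and 60-base sequence.

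Members were chosen from the deposited log ratios, centred on each array's median. A probe had to be well above background in Cy3 on both day 7 arrays, with RA 48 h less than 0.5 (log2) above control day 3 and day 4 colonies less than 0.5 above standard day 3, conditions that 19233 probes met. The 150 with the highest score were kept, the score being the smaller of the day 7 differences from standard day 3 and from control day 3. Scores ran between 1.32 and 6.45 with a median of 1.75. Rises smaller than 0.5 were let through: RA 48 h was over 0.25 above control day 3 in 36 members, and below it in 65. Just inside the limit stood Z00076672-1, Z00064140-1 and Z00000670-1 at 1.323, 1.322 and 1.317, and just outside it Z00074204-1, Z00076937-1 and Z00010489-1 at 1.308, 1.305 and 1.304. All day 7 differences below are therefore a description, without a test.

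The first 4 sequences belong to the members whose day 7 arrays stood farthest from all standard and control arrays among bright probes. These 4 were picked after their values were seen, and no brightness limit is given. The next pair belong to the members with the highest scores. In Z00031143-1 the capitals mark AATAAA, the usual polyadenylation signal.
Z00070385-1: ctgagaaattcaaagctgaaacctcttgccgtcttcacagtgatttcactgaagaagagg
Z00004888-1: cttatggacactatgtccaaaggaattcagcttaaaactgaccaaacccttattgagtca
Z00056780-1: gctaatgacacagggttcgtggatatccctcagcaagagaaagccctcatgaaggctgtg
Z00035352-1: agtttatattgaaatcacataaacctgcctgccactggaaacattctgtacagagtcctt
Z00031143-1: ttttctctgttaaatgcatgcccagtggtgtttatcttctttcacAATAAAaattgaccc
Z00063570-1: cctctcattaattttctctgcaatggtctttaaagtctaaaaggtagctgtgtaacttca

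The members fell into 3 classes by where their Cy3 signal rose clear of background. On both arrays of all 7 groups 57 members were well above background, 25 were so on no array outside day 7 colonies, and the other 68 lay between. Both arrays were well above background for 150 members in day 7 colonies, as the choice required, against 63 in day 4 colonies, 93 in RA 48 h, 79 in LY294002, 68 in passage 10, 66 in standard day 3 and 111 in control day 3. Detection over all probes differed between groups as well. The shares per array were 73.1% and 74.8% in control day 3, 68.6% and 75.1% in RA 48 h, and 68.8% and 65.7% in LY294002. In day 7 colonies they were 66.1% and 66.3%, and in day 4 colonies 58.5% and 58.5%. Passage 10 had 56.1% and 58.6%, and standard day 3 had 58.2% and 57.9%. Of the members 93 were above background in Cy5 on all 14 arrays and 20 on none, so for these 20 the ratio compares the sample with a reference signal that was not measured.

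The values below are log2 ratios of sample over reference after background correction and loess normalization, a different scale from the one that chose the members. On it the median member stood at 0.62 in day 7 colonies, -0.12 in day 4 colonies, -0.09 in RA 48 h, -0.15 in LY294002, -0.14 in passage 10, -0.11 in standard day 3 and -0.15 in control day 3. The ratio was above 0 for 116 members in day 7 colonies, against 47 in standard day 3 and 58 in control day 3. RA 48 h stood at least 0.5 above control day 3 in 4 members on this scale, and day 4 colonies so far above standard day 3 in 0. The median difference was 1.07 from standard day 3 and 1.1 from control day 3, where the medians of all 31053 tested probes were 0.02 and 0.00. In 138 members both day 7 arrays lay above all standard and control arrays, and in 61 the gap was at least 1. Of tested probes 22.6% and 1.9% met these conditions, and since the differences chose the members the counts are a description.

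**Figure D1:**
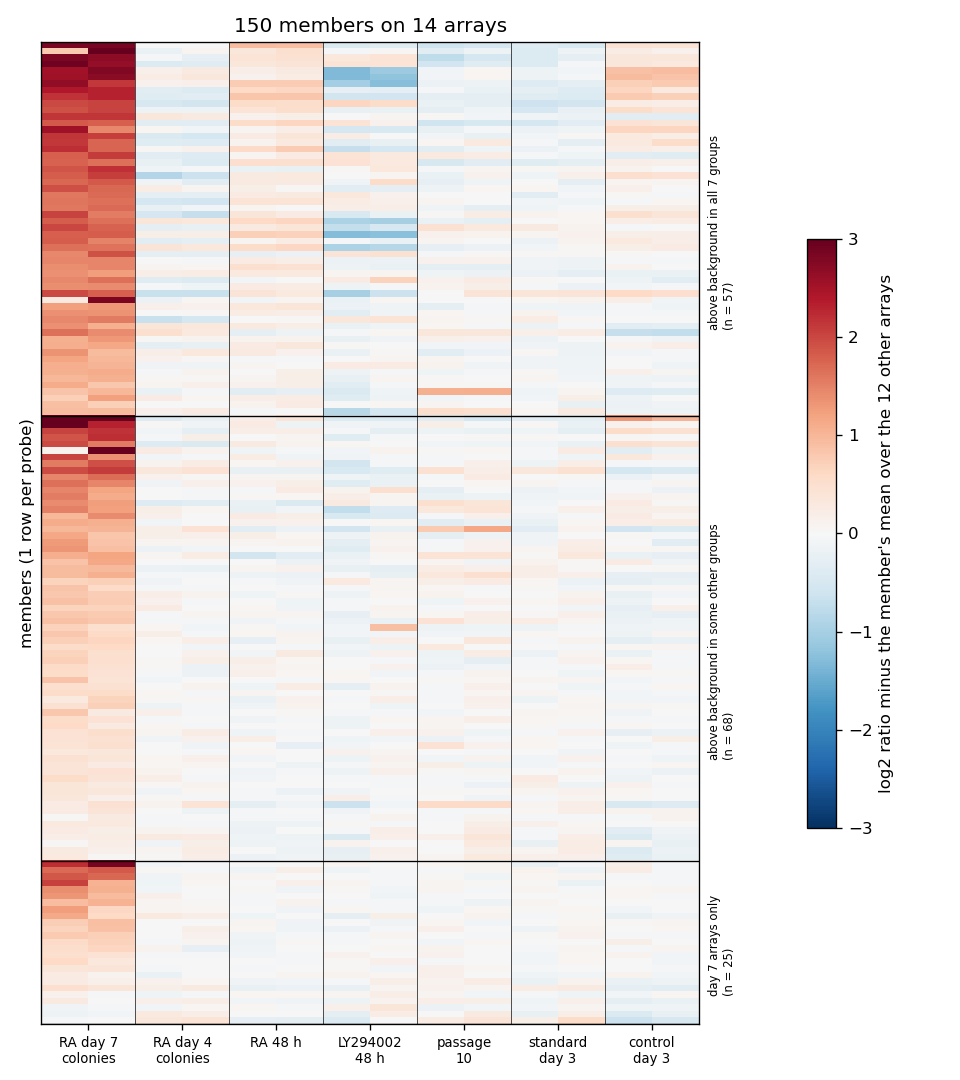
Log2 ratio of each of the 150 members (rows) on the 14 arrays (columns, 2 per group), less the member's mean over the 12 arrays outside day 7 colonies, with colour running between -3 and 3. Rows are split into the classes of 57, 68 and 25 members and ordered by the day 7 difference from standard day 3. The day 7 columns are the darkest, and a few rows are pale on 1 of the 2 day 7 arrays.

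On the loess scale the class with signal in every group carried most of the large differences. On the scale of the choice the order was the reverse, with median scores of 1.66 in the 57, 1.78 in the 68 and 2.76 in the 25. At least 2-fold over both untreated groups on the loess scale stood 74 members: 50 of these 57, 18 of the 68 and 6 of the 25. Among tested probes 2.53% did so, and these differences too were part of the choice. The 57 had a median difference of 1.70 from standard day 3 (0.77 to 3.26) and 1.5 from control day 3 (0.94 to 2.76). Among the 25 seen on day 7 arrays only, the medians were 0.63 (-0.38 to 2.67) and 0.74 (0.04 to 2.47).

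**Figure D2:**
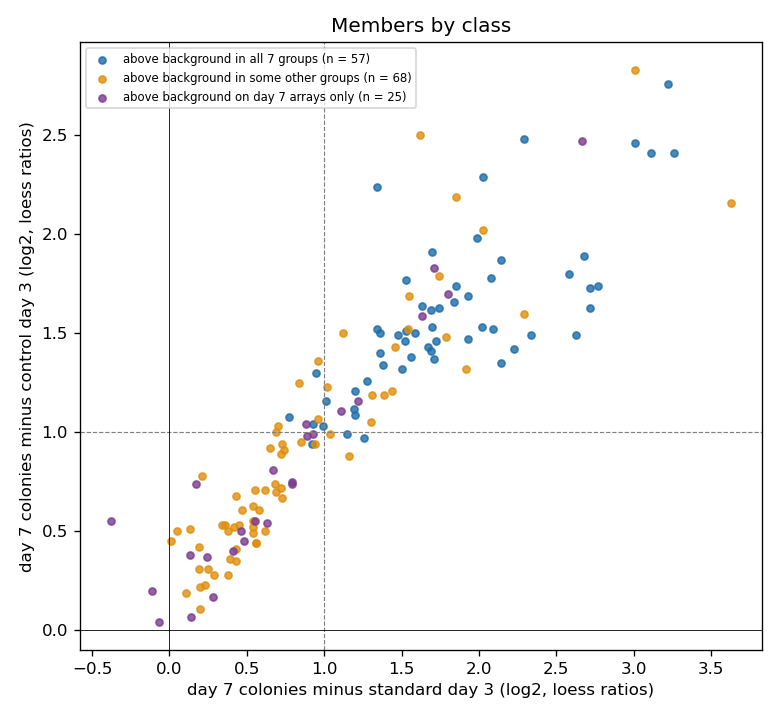
Day 7 colonies minus standard day 3 (x axis) and minus control day 3 (y axis), both in log2 on the loess scale, for the 150 members coloured by class, with dashed lines at a 2-fold difference. The 74 members beyond both lines are mostly from the class of 57, and 3 members lie left of 0 on the x axis.

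Z00070385-1 had ratios of 1.61 and 1.63 in day 7 colonies, against -1.20 and -1.20 in day 4 colonies, -0.29 and -0.31 in RA 48 h, -1.66 and -1.58 in LY294002, -1.81 and -1.73 in passage 10, -1.61 and -1.67 in standard day 3 and -0.78 and -0.81 in control day 3. Day 7 colonies stood 9.55-fold over standard day 3 and 5.32-fold over control day 3, with a gap of 2.39 to the nearest of those arrays. RA 48 h lay above control day 3, and day 4 colonies lay above standard day 3. RA 48 h and control day 3 both lay above day 4 colonies, which were of another line, slide and scan day. The cause was not tested.

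Z00056780-1 was the brightest of these probes. Its Cy3 signal over local background was 104000 and 79000 in day 7 colonies, against 9200 and 7790 in day 4 colonies, 18300 and 18300 in RA 48 h, 9490 and 11200 in standard day 3 and 25900 and 22300 in control day 3. Its ratio was 0.95 and 0.66 in day 7 colonies, against -2.38 and -2.03 in standard day 3 and -1.64 and -1.67 in control day 3, or 8.06-fold and 5.49-fold. Z00004888-1 had much the same profile, with 0.78 and 0.65 in day 7 colonies, against -2.46 and -2.32 in standard day 3 and -1.69 and -1.70 in control day 3. In both, RA 48 h, LY294002 and control day 3 lay together, above day 4 colonies, passage 10 and standard day 3. The former groups were all scanned on the same day and the latter on other days, so this split cannot be told apart from scan day.

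Z00035352-1 differed in that its untreated groups were close to the reference. It had 2.03 and 2.02 in day 7 colonies, against 0.21 and 0.15 in day 4 colonies, 0.02 and 0.05 in RA 48 h, -0.23 and -0.30 in standard day 3 and -0.45 and -0.46 in control day 3. Day 7 colonies were 4.89-fold over standard day 3 and 5.58-fold over control day 3, and the arrays of no other group reached them.

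**Figure D3:**
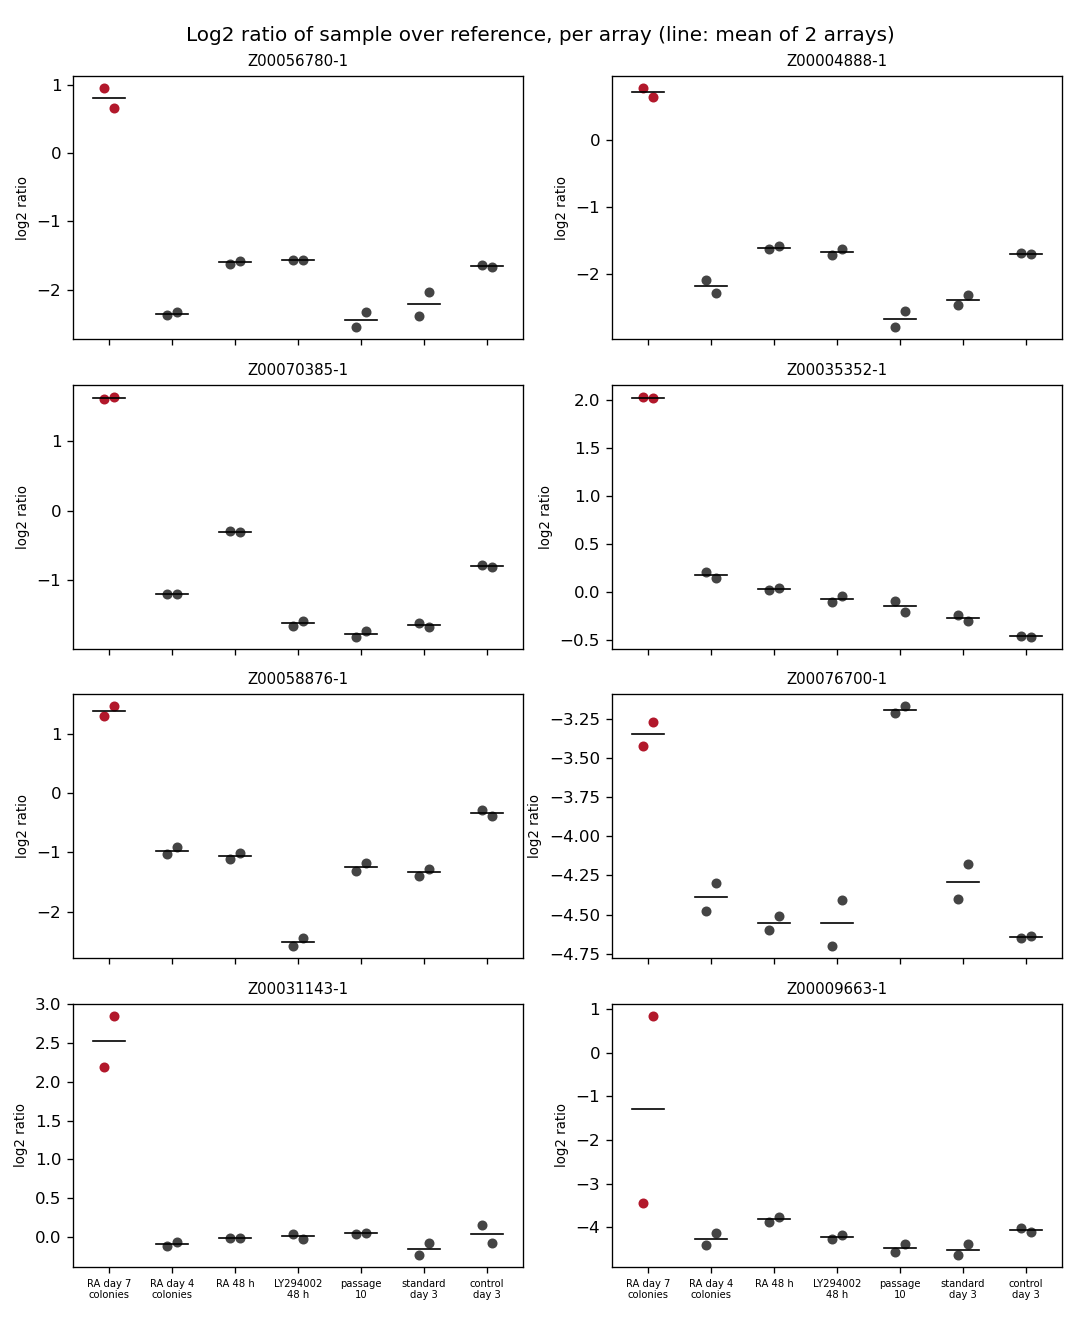
Log2 ratio of sample over reference on each of the 14 arrays (points, with a line at the mean of the 2 arrays of a group) for 8 members, with day 7 colonies in red and a y axis of its own per panel. Day 7 arrays are the highest in most panels. Passage 10 is as high in Z00076700-1, and in Z00009663-1 the day 7 arrays are at -3.45 and 0.85.

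The highest scores belonged to dim probes. Of the 30 highest, 13 were seen on day 7 arrays only and 3 in all groups. Among the 12 highest, none was above background in Cy5 on all arrays (0 of 12), and 11 had Cy3 signals under 300 on both day 7 arrays. For a probe not well above background on both arrays of a group, a fold is given as a bound, from the mean Cy3 signal of day 7 colonies and each dim array's lowest well-measured signal, or the probe's own where higher. These bounds come from 1 channel after loess and Aquantile normalization and, with no dye swap, are open to dye bias.

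Z00031143-1 led with a score of 6.45. Its Cy3 signal over background was 185 and 284 in day 7 colonies, against 12.6 and 12 in day 4 colonies, 10.1 and 10.5 in RA 48 h, 11.0 and 12.1 in standard day 3 and 9.08 and 6.59 in control day 3. The bounds were at least 4.14-fold over standard day 3 and at least 4.86-fold over control day 3. Its ratio was 2.19 and 2.85 in day 7 colonies, against -0.23 and -0.08 in standard day 3 and 0.16 and -0.07 in control day 3, so the loess difference of 2.67 was well short of the score.

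Z00063570-1, with a score of 5.61, had 125 and 127 in day 7 colonies, against 17.6 and 7.43 in standard day 3 and 8.82 and 1.32 in control day 3, at least 2.58-fold and 3.04-fold. Z00072664-1 was at least 2.79-fold and 3.14-fold over these groups. The bounds were at least 2.21-fold and 2.70-fold for Z00070283-1, and 1.72-fold and 2.06-fold for Z00046287-1. Both day 7 arrays of each of these members were above all arrays of both groups.

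For Z00074337-1 and Z00039085-1 the signal was well above background on some arrays elsewhere, and day 7 colonies were at least 6.60-fold and 3.44-fold over standard day 3. Others of the 12 highest were nearer the limit of detection: Z00054124-1 at least 1.5-fold, Z00025825-1 1.66-fold, Z00001256-1 1.48-fold, Z00023572-1 1.32-fold and Z00039487-1 1.33-fold over standard day 3. Over the 25 members seen on day 7 arrays only, a bound over control day 3 existed for 25, with a median of 1.58 and a range of 1.14 to 4.86. Over standard day 3 it existed for 21, with a median of 1.33 and a range of 1.04 to 4.14.

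The rest of the 30 highest scores mixed both kinds. Z00070067-1, Z00035094-1, Z00047199-1, Z00007879-1 and Z00073020-1 stood 1.74, 1.62, 1.46, 1.55 and 1.54 (log2) over standard day 3, with no overlap of arrays. Z00077285-1, Z00032243-1, Z00054464-1, Z00023775-1, Z00026262-1, Z00018358-1 and Z00006802-1 stood 0.73, 0.88, 1.22, 0.68, 0.72, 0.96 and 0.67 over it. Z00076306-1 had the smallest such difference among the 30 at 0.41. On the loess scale 3 members, Z00077885-1, Z00036660-1 and Z00003035-1, named after their values were seen, stood below standard day 3 by -0.07, -0.11 and -0.38, and none was well above background on any array outside day 7 colonies.

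The 2 day 7 arrays correlated at r = 0.918 over the members and 0.972 over the tested probes, as a description across probes. In 6 members they differed by over 1 on the log2 scale, and in 3 of these array 2 was higher by over 2. Their sequences are shown because most of their day 7 mean difference comes from that array.
Z00009663-1: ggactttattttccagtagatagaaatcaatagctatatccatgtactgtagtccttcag
Z00057880-1: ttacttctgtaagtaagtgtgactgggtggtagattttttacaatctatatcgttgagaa
Z00022654-1: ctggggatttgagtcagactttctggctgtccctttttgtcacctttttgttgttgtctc

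Z00009663-1 had Cy3 signals over background of 357 and 7350 in day 7 colonies, against 84.7 and 62.8 in standard day 3 and 197 and 150 in control day 3. Z00057880-1 had 58.2 and 1610 in day 7 colonies, against 34.5 and 26.4 in standard day 3 and 24.5 and 21.8 in control day 3. Z00022654-1 had 80.5 and 803 in day 7 colonies, against 53.1 and 35.8 in standard day 3 and 56.0 and 43.7 in control day 3. On array 1 the ratio of Z00057880-1, -2.20, lay within the standard day 3 arrays (-2.35 and -2.06). In Z00009663-1 array 1, at -3.45, was above the standard day 3 arrays (-4.64 and -4.39) and the control day 3 arrays (-4.01 and -4.11), and in Z00022654-1 it was above them by 0.1. The other 3, Z00070283-1, Z00074337-1 and Z00072364-1, were above all standard and control arrays on both day 7 arrays.

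**Figure D4:**
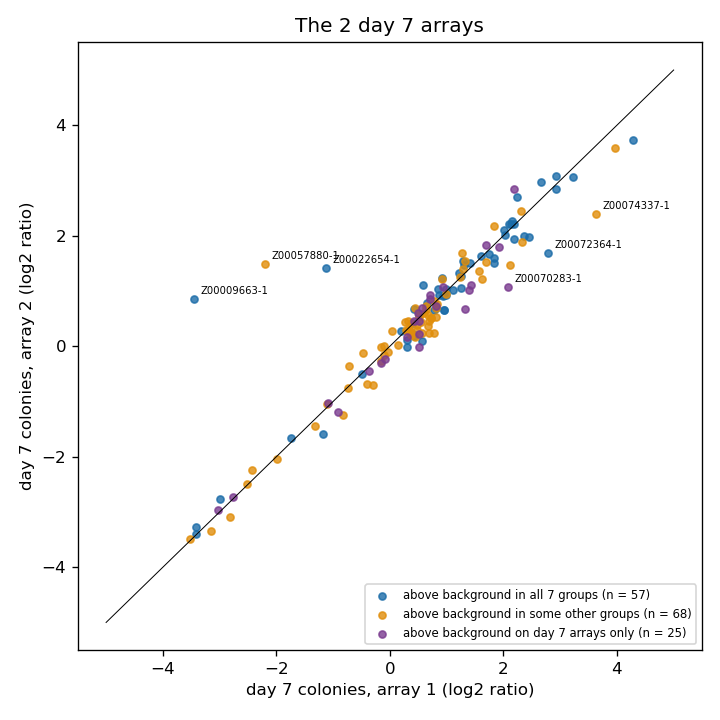
Log2 ratio of each member on day 7 array 1 (x axis) and array 2 (y axis), coloured by class, with the line of equality. The 6 members whose arrays differ by over 1 are named, and Z00009663-1, Z00057880-1 and Z00022654-1 lie far above the line.

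Where probes shared sequence, their values could be set side by side. A run of at least 20 bases was shared by 11 members with some other probe, and 4 of these shared it with another member. The shared run is in capitals, and such probes may read the same RNA, so they are not independent.
Z00058876-1: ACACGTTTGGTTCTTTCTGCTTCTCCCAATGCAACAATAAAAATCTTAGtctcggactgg
Z00000257-1: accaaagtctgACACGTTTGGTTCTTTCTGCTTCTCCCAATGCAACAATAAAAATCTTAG
Z00024850-1: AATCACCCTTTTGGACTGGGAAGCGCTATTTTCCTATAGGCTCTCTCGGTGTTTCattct
Z00074952-1: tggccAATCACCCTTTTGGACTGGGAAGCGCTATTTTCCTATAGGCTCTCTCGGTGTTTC
Z00073020-1: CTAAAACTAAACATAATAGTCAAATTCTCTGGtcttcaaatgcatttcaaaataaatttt
Z00073764-1: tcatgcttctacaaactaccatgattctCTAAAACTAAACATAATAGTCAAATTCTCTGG

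Z00058876-1 and Z00000257-1 share 49 bases and had 1.31 and 1.47, and 1.29 and 1.54, in day 7 colonies. In standard day 3 they had -1.39 and -1.28, and -1.38 and -1.32, and in control day 3 -0.29 and -0.39, and -0.34 and -0.31. Control day 3 thus lay between the groups for both. Z00024850-1 and Z00074952-1 share 55 bases and stood 1.59 and 1.52 over standard day 3. Z00073764-1, not a member, shares 32 bases with Z00073020-1 and had 1.67 and 1.48 in day 7 colonies, against 0.37 and 0.33 in standard day 3 and -0.12 and -0.06 in control day 3. It missed the choice because its RA 48 h ratio was 0.56 over control day 3 on the deposited scale. Z00077885-1 shares 22 to 24 bases with 6 probes, none of which was a member. The median GC content was 41.7% in members and 45.0% in tested probes, and AATAAA stood in 6.67% of members and 6.93% of all probes.

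Passage 10 against LY294002 was the comparison that the choice of members did not use. Past limma's threshold (adjusted p under 0.05 by Benjamini-Hochberg, over the whole table of tested probes) 34 members were higher and 15 lower in passage 10. Those are 22.7% and 10.0% of members, against 24.6% and 23.3% of tested probes. Only 63 members were well above background on all arrays of both groups. In a fit of such probes alone, 23 of these were higher and 14 lower, so the member shares depend on members that were dim in these groups. The 25 members seen on day 7 arrays only entered the test through those arrays and were well above background in neither group compared. Of them 1 was higher and 1 lower. In the class of 57 with signal in all groups the shares were 33.3% and 19.3%. Tested probes were not split this way, so the shares are not like for like. The median member difference was 0.04, against -0.01 over tested probes. With median centring in place of loess, 15 members were higher and 24 lower, so the member counts depend on the normalization. The share of all tested probes called was not counted under that setting. Whether the change is particular to the members is thus not known. The arrays of these groups lay on different slides and were scanned on different days, so slide, scan day and group cannot be told apart.

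Z00004852-1 rose most, with 0.52 and 0.50 in passage 10, against -0.91 and -0.85 in LY294002, a difference of 1.39 (SE 0.06, limma adjusted p = 1.52e-09). Z00031231-1 and Z00076700-1 both rose by 1.37, and the overlapping pair Z00058876-1 and Z00000257-1 by 1.26 and 1.18. Z00004888-1 fell most, with -2.80 and -2.55 in passage 10, against -1.72 and -1.63 in LY294002, a difference of -1 (SE 0.09, limma adjusted p = 2.1e-06). Z00056780-1, Z00043882-1, Z00015168-1 and Z00074459-1 differed by -0.87, -0.86, -0.82 and -0.76. These 10 were picked among members past the threshold with no overlap of arrays.

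Passage 10 against standard day 3 asked what remained 10 passages after RA. Standard day 3 entered the choice, with members low in it, so passage 10 is set against a level chosen low. Of the members 5 rose (3.33%, against 1.66% of tested probes) and 0 fell by limma (against 1.76%; at an unadjusted p under 0.05, 20 were higher and 7 lower), and the median difference was 0.03, against 0.01 over tested probes. In the class of 57 with signal in all groups 3 rose and 0 fell. Of the 25 seen on day 7 arrays only, well above background in neither group, 0 rose and 0 fell. A fit of probes well above background on all arrays of both groups held 63 members, and 5 rose and 1 fell. Arrays of the same number shared a slide here. A fit of these 4 arrays with the replicate number as a block gave 9 higher and 1 lower, and slide as a random block over all arrays gave 5 and 0. The deposited ratios gave 11 higher and 2 lower, and median centring 1 and 0.

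Z00076700-1 and Z00031231-1 rose most, and their sequences are given for that reason.
Z00076700-1: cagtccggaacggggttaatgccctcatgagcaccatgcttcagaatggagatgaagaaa
Z00031231-1: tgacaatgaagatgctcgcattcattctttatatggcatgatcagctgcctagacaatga
Z00076700-1 had -3.21 and -3.17 in passage 10, against -4.40 and -4.18 in standard day 3, a difference of 1.1 (SE 0.1, limma adjusted p = 0.00012), and 1.19 and 1.01 within the 2 slides. Z00031231-1 had -3.72 and -3.36 in passage 10, against -4.86 and -4.41 in standard day 3, a difference of 1.09 (SE 0.16, limma adjusted p = 0.00358), and 1.13 and 1.05 within the slides. Day 7 colonies had -3.42 and -3.27 in Z00076700-1, below both passage 10 arrays, and -3.53 and -3.49 in Z00031231-1, between them. Both were far below the reference in all groups. Z00031231-1, unlike Z00076700-1, was not well above background on both arrays of every group, so its differences are less certain.

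The other 3 rises were small. Z00076666-1 differed by 0.47 (limma adjusted p = 0.027), Z00043882-1 by 0.33 (adjusted p = 0.0175) and Z00024850-1 by 0.27 (adjusted p = 0.0238). Z00076700-1 and Z00031231-1 stayed past the threshold when any 1 of the 4 arrays was left out, and the count of rises was then 2 or 3. Z00024850-1 was kept only without standard day 3 replicate 1 (adjusted p = 0.049), and Z00043882-1 and Z00076666-1 were lost without any 1 of the 4. The bright members Z00056780-1, Z00004888-1, Z00070385-1 and Z00035352-1 were not among those called.

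LY294002 against control day 3 addressed the kinase inhibitor, with members chosen low in control day 3. Of the members 18 were higher (12%, against 24.5% of tested probes) and 29 lower (19.3%, against 28.1%), and the median difference was -0.01, against 0.00 over tested probes. Most of the falls, 22 of 29, were in the class of 57 with signal in all groups, where 19.3% were higher and 38.6% lower. Of the 25 seen on day 7 arrays only, well above background in neither group, 3 were higher and 0 lower. A fit of probes well above background on all arrays of both groups held 78 members, with 13 higher and 24 lower. Tested probes were not split this way, so the shares are not like for like. Leaving out LY294002 replicate 1 gave 28 higher, and leaving out replicate 2 gave 11. Both groups were scanned on 1 day but lay on different slides, control day 3 beside RA 48 h and LY294002 alone. Slide and treatment therefore cannot be told apart.

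The overlapping pair fell most. Z00058876-1 had -2.58 and -2.44 in LY294002, against -0.29 and -0.39 in control day 3, a difference of -2.17 (SE 0.09, limma adjusted p = 6.19e-10), and Z00000257-1 differed by -2.11. Z00054025-1, Z00037322-1 and Z00004852-1 differed by -1.91, -1.57 and -1.46. Of these, Z00037322-1 had the largest day 7 difference from standard day 3 among members, with 3.96 and 3.58 in day 7 colonies, against 0.11 and 0.18 in standard day 3 and 1.75 and 1.48 in control day 3, at least 9.36-fold over standard day 3. The largest rises past the threshold were smaller: Z00022752-1 by 0.72, Z00061212-1 by 0.70, Z00031344-1 by 0.69, Z00045567-1 by 0.42 and Z00043882-1 by 0.40.

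**Figure D5:**
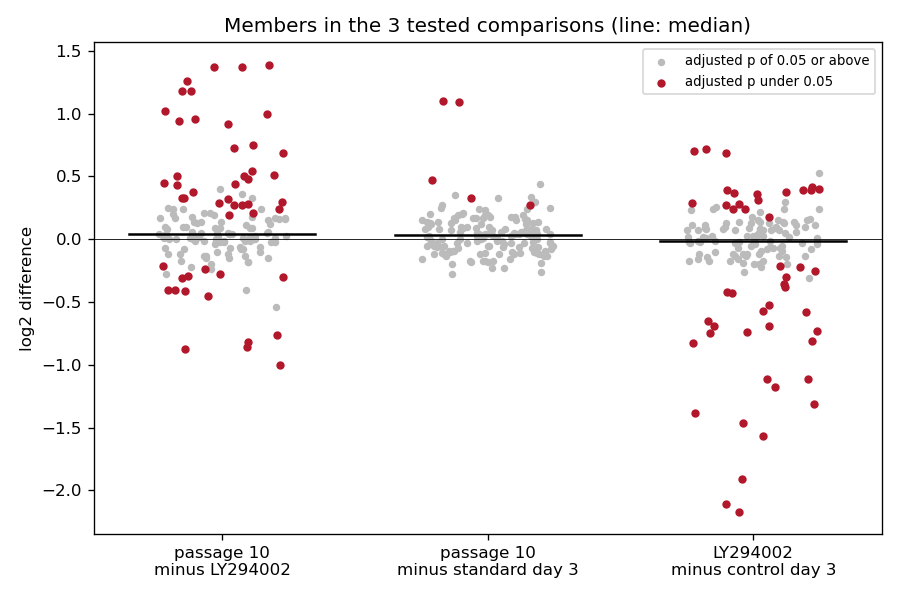
Log2 difference of each of the 150 members (points) in the 3 tested comparisons, with members past limma's adjusted p of 0.05 in red and a line at the median. The medians lie at 0.04, 0.03 and -0.01, and the longest tail is that of falls in LY294002.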

How the data were processed

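Per the file headers, Feature Extraction version 9.5.1.1 from Agilent read the 14 arrays, which had 2 colours, with sample RNA in Cy3 and reference RNA in Cy5 on all arrays, per the labels. The deposited intensity values are mean signals and median backgrounds per spot, without normalization, and processed signals that the software had background-subtracted and dye-normalized, as the file headers state. Log10 ratios deposited beside them are of Cy5 over Cy3, and their sign was turned. The authors' table of values holds log10 values of 25030 probes, 99 of them members. After centring per probe it matched the turned log10 ratio at r = 0.99927 to 0.99997 over 14654 probes clear of its floor, and at 0.899 to 0.963 over all its probes. Its column medians were 2.24 to 2.32, and the source of its constant per probe, and so its centring, stays unknown.

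Members and lists were chosen with earlier results of these data known. Signals were corrected with normexp (offset 50), normalized by loess within arrays and averaged per probe in limma 3.58.1 (R 4.3.3, statmod 1.5.0, version 1.17.8 of data.table). Control spots had weight 0, and outlier spots were left out. The 31053 probes well above background in Cy3 on both arrays of some group were tested, with a mean per group over 14 arrays (7 residual degrees of freedom, 5.33 from the prior), eBayes and Benjamini-Hochberg adjustment. The number of arrays limits the precision. In simulated data for passage 10 against LY294002 on 31005 probes, the fit recovered 77.6% of 67 probes changed by 0.5, 98.5% of 67 changed by 1 and 100% of 66 changed by 2 (log2), with 13 false calls. The simulated noise was independent between arrays, with no slide effect and most probes unchanged. These figures thus describe the fit under those settings and not the real comparison. Passage 10 and standard day 3 arrays of the same number share a slide, per the file headers. Their deviations correlated at r = 0.254 across probes, against 0.287 for passage 10 and LY294002, which share no slide.

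Probes named by rule were the 30 with the highest scores and 3 on each side of the limit. The rule also named the 5 largest rises and falls past the threshold per tested comparison, without overlap between arrays. Others were named after their values were seen: bright members with wide gaps to the standard and control arrays, and members with paired arrays far apart. Probes sharing sequence with members, and members below standard day 3 on the loess scale, were also named outside the rule. The gene lists could not be applied, since 0 members matched a RefSeq promoter window or miRNA hairpin and no gene column names them. Alternatives were other scales, filters, blocks and single arrays left out.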

Additional observations from a re-analysis of the deposited data

How the results depend on the processing

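The choice of members depends on the scale: 65 of the 150 would be chosen from loess ratios, 63 with median centring, 92 with a limit of 0.25 and 128 without the detection filter, and 114 to 123 from 1 day 7 array alone. Median centring gave 15 members higher and 24 lower in passage 10 than LY294002, 1 higher than standard day 3, and a median of 0.02 for LY294002 minus control day 3. The deposited ratios gave 11 higher and 2 lower in passage 10 than standard day 3 and a median of -0.12 for LY294002. Without background subtraction 1 was lower in passage 10 than standard day 3, and the medians were 0.09 (passage 10 minus LY294002) and -0.05 (LY294002). Keeping probes above background on all arrays compared left 63 members in both passage 10 comparisons. It gave 1 lower than standard day 3 and passage 10 medians of 0.08 against LY294002 and 0.06 against standard day 3. The authors' value table, which holds only 99 of the members, gave 9 higher and 1 lower than standard day 3 and medians of 0, 0 and -0.08. The replicate block gave 9 higher and 1 lower than standard day 3. It gave 40 and 21 against LY294002, and 16 and 29 for LY294002 against control day 3, where no label ties the numbers (r = 0.287 and -0.0865). In the class of 57, a choice added after seeing the data, 19 were higher in passage 10 than LY294002, 3 than standard day 3 and 11 in LY294002 than control day 3 (median -0.13). The causes were not tested. For these settings the share of all tested probes called was not counted, so the member counts have no background beside them. Leaving out 1 array gave 24 to 44 higher and 10 to 14 lower in passage 10 than LY294002 (medians 0 to 0.07), 2 to 3 higher and 0 lower than standard day 3 (0 to 0.05), and 11 to 28 higher and 24 to 30 lower in LY294002 (-0.04 to 0). Signal over background limits the 25 members seen on day 7 arrays only.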
